A study of Mus musculus with 27 samples.

Results

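The genes described here make, carry, store and export cholesterol, or make fatty acids. They are 37 genes chosen by name: 18 enzymes of cholesterol synthesis, 5 genes that control the sterol-sensing transcription factors, 4 that move or store cholesterol, 7 of cholesterol efflux and oxysterol formation, and 3 of fatty acid synthesis. All 37 are among the 23995 genes of the deposited table, and all 37 reached a normalised count of at least 10 in at least 3 of the 27 libraries, as 14668 genes did, so all were tested. For a contrast of opposing programmes, 20 of them were read as synthesis-type genes (the 18 enzymes with Insig1 and Stard4, usual targets of SREBP factors). Another 5 were read as efflux-type genes: Abca1, Abcg1, Mylip and Lpcat3, usual targets of LXR receptors, and Nr1h3, which encodes an LXR receptor.

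The cells were primary microglia, the macrophages of the brain, taken from the cortex of newborn mice and shaken off a mixed glial culture. The mice were C57BL/6J wild types or, labelled CB2-/-, of strain B6.Cg-Cnr2tm1Zim. In the latter Cnr2, the gene of cannabinoid receptor 2, is targeted. Cells were left unstimulated or were given, for 16 h, E. coli LPS (100 ng/ml) with interferon-γ (20 ng/ml), PolyI:C (its dose unit is not readable in the labels), or CpG (1 nmol/ml), which act on the Toll-like receptors TLR4, TLR3 and TLR9. The time is that of the design text, while the treatment protocol also names a shorter one. The first is written LPS/IFN-γ below. Wild-type unstimulated cells have 6 libraries and each of the other 7 groups has 3. The labels do not say whether replicates are separate cultures or animals, so the p-values below speak only of the spread among these libraries.

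Library numbers in the titles split the wild-type unstimulated group. Replicates 1 to 3 carry numbers 3012 to 3014 and run on with all stimulated wild-type libraries to 3023, whereas replicates 4 to 6 carry 2186 to 2188 and all libraries labelled CB2-/- carry 2048 to 2059. Wild-type responses were therefore taken against replicates 1 to 3, and unstimulated genotypes were compared through replicates 4 to 6. For stimulated cells genotype and number series are the same split and cannot be told apart. Replicates 4 to 6 and the libraries labelled CB2-/- were treated as 1 number series, though their numbers form separate runs. No label says that they were handled together, so genotype and run cannot be told apart in unstimulated cells either. Library totals of normalised counts lay between 6341299 and 14151982. Taking the smallest recurring step as 1 read, this was roughly 2.50 to 36.7 M reads. All 8 microglial markers looked at were above 0 in every library. Cnr2 itself was counted at 217 to 454 in the libraries labelled CB2-/-, at 172 to 233 in unstimulated wild type and at 0 to 22 in stimulated wild type; a value per gene does not show which part of Cnr2 is missing and so does not check the genotype, which rests on the labels. Levels below are normalised counts, mean ± SD where averaged, with n = 3 libraries. Changes are log2 fold changes ± SE of log2(value + 1), a scale that makes changes of low genes look smaller. Genes counted as called had an adjusted p under 0.05 (limma, with Benjamini-Hochberg adjustment, BH, over the 14668 genes).

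Animal cells adjust cholesterol through a pair of opposing programmes. When membranes of the endoplasmic reticulum run low in sterol, Scap escorts SREBP precursors to the Golgi, where they are cut, and the released factors switch on nearly every enzyme of cholesterol synthesis; Insig proteins hold Scap back when sterol is plentiful. When oxysterols build up, LXR receptors switch on exporters such as Abca1 and Abcg1, and in macrophages the oxysterol made by Ch25h is known both to hold back SREBP processing and to activate LXR.

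Promoter sequences of 29 of the 37 genes were found by symbol in the RefSeq table for GRCm38.p6, each reaching from 250 bases before to 50 bases after the annotated start, 300 bases in all. They are shown for 4 synthesis-type genes whose RNA fell with all 3 stimuli in wild type, and for contrast for Abca1, an efflux-type gene, and Ch25h, the gene with the largest rise. The windows are chr13:119690101-119690400 (Hmgcs1), chr13:8885356-8885655 (Idi1) and chr5:28071162-28071461 (Insig1) on the plus strand, and chr5:4104648-4104947 (Cyp51), chr4:53159846-53160145 (Abca1) and chr19:34475099-34475398 (Ch25h) on the minus strand. Each is written 5′ to 3′ along its gene, with the letters CCAAT (or ATTGG, its reverse complement) and TCACNCCAC in capitals.
Hmgcs1: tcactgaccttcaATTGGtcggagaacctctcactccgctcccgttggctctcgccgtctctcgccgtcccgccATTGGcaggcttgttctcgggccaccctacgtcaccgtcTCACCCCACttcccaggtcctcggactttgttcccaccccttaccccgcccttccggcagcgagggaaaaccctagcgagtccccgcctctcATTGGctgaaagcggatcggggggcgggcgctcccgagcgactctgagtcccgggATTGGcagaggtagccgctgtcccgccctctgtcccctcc
Idi1: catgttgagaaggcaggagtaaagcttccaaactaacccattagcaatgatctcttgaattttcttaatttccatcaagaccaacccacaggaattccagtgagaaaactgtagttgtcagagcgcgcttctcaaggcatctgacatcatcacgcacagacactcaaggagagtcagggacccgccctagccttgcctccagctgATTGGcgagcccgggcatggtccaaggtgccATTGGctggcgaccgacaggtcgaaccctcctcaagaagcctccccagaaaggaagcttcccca
Cyp51: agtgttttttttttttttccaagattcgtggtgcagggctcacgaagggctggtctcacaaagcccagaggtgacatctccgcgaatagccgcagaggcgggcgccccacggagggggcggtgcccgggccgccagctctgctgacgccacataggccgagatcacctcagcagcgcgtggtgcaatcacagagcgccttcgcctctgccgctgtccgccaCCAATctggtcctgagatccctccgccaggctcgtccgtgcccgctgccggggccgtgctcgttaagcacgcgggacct
Insig1: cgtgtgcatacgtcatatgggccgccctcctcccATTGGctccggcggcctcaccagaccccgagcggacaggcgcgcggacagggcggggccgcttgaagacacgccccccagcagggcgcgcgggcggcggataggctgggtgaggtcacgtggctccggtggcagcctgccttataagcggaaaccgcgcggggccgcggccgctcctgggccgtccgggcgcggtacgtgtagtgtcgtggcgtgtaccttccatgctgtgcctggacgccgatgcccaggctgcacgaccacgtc
Abca1: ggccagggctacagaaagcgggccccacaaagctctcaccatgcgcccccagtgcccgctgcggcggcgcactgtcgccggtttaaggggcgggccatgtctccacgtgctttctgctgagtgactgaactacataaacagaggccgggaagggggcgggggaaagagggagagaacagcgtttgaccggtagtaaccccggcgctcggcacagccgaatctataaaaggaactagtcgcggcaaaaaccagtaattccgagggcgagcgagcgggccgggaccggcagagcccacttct
Ch25h: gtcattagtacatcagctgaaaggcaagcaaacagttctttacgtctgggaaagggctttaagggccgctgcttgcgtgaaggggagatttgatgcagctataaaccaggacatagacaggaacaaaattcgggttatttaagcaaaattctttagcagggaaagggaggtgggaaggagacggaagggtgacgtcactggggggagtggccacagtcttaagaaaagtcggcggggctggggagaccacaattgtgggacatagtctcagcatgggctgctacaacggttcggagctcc

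The CCAAT box is the motif of the factor NF-Y, known to act beside SREBP factors. Searched on either strand, CCAAT was present in a window of 15 of 16 synthesis-type genes in the table (93.8%) and of 2 of 4 efflux-type genes (50.0%). Among the 29 genes 23 had it (79.3%), against 41.1% of all 27025 genes. Some genes have several windows, and a match in any of them counted. In Dhcr7, Insig2, Pmvk and Srebf1 not every window held CCAAT. Hmgcs1, the enzyme that forms HMG-CoA, has 4 such matches, starting 237, 176 and 45 bases before the start and at the tenth base after it, all on the opposite strand. In Hmgcs1 there is also the match of TCACNCCAC, a short form of the sterol regulatory element, beginning 137 bases before the start on the gene's own strand. Of the 29 genes Hmgcs1 was the only one with it in any window, against 1.44% of all genes. An idealised form of the LXR-type repeat, AGGTCA copied once more after 4 further bases, was in 0 of the 29 genes and in 0.0148% of all. Its looser form with AGNTCA in both places, which includes the strict form, was in 0 and in 0.144%. Every motif was searched on both strands, and sites with other letters were not looked for. The counts of 0 therefore do not show that Abca1 or any other gene lacks an LXR-type repeat. These matches describe letters in these windows and nothing more.

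The wild-type unstimulated libraries, which carry the same group labels, held these genes at different levels in the 2 number series, and this bears on every response below. In replicates 4 to 6 synthesis-type genes were lower and efflux-type genes higher than in replicates 1 to 3. Of all 37 genes 23 were called in this comparison, 8 higher and 15 lower, beside 12% of all genes called, 6.33% higher and 5.66% lower (limma, BH). Of the 20 synthesis-type genes 14 were lower and 0 higher (median log2 -1.18), and of the 5 efflux-type genes 4 were higher and 0 lower (median 0.95), beside a median of -8e-04 over all genes tested. In bulk RNA the number of cells of a type and the RNA per cell cannot be told apart, here or below.

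Idi1, the isomerase that turns isopentenyl diphosphate into its reactive partner, stood at 427, 292 and 278 in replicates 1 to 3, against 50.8, 107 and 81.8 in replicates 4 to 6. Cyp51, the lanosterol demethylase, stood at 654, 405 and 533 against 85.8, 138 and 91. In neither gene did the sets overlap, and each difference passed the test (-2.08 ± 0.43, adjusted p = 0.00159, and -2.33 ± 0.34, adjusted p = 3.03e-05, limma, BH). The exporter Abcg1 went the other way, with 247, 425 and 351 in replicates 1 to 3 against 2067, 1831 and 1786 in the others (2.50 ± 0.13, adjusted p = 4.6e-12, limma, BH). Abca1, the other main exporter, was at 9716, 9948 and 9188 and 19468, 18068 and 18168. Every one of replicates 4 to 6 lay above every one of replicates 1 to 3 for both exporters.

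Among the remaining called genes Msmo1, the methylsterol monooxygenase, was lower in replicates 4 to 6 (-1.75 ± 0.20). So were Insig1 (-1.63 ± 0.22), Srebf2, which encodes the SREBP factor of sterol synthesis (-0.94 ± 0.15), and Fdps, the farnesyl diphosphate synthase (-1.90 ± 0.29). The desaturase gene Scd2 was higher (2.45 ± 0.74), with 617, 1155 and 619 and 5454, 3867 and 3416, but kept its call in 1 of 6 fits that each left out 1 library. Nr1h3 (1.61 ± 0.36), Mylip (0.72 ± 0.09), Soat1 (0.74 ± 0.15), Ch25h (1.48 ± 0.42) and Npc1 (0.37 ± 0.10) were higher too. No adjusted p of these 10 genes was above 0.0302 (limma, BH). Tm7sf2, a sterol reductase, was called at -1.83 ± 0.58 and lost its call in each of those 6 fits. The other called genes were all lower: Sqle (-1.73), Lss (-1.80), Nsdhl (-0.98), Hmgcs1 (-1.12), Mvd (-1.17), Stard4 (-1.78), Fdft1 (-1.09) and Sc5d (-0.71), the last 3 of which kept their call in 1 or 2 of the 6 fits. The 14 genes not called ranged from -1.19 (Acat2) to 0.56 (Scap).

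Other measures moved with the same split. The summed level of 9 astrocyte markers was 205, 1077 and 350.4 for replicates 1 to 3 against 1600.2, 2674 and 2031 for replicates 4 to 6. That of 6 fibroblast markers was 13.4, 2891 and 381 against 691, 854 and 2475, and these overlapped. The share of summed values held by Gm19220, Gm26822 and Grip2, singled out because of their size, was at most 0.00224% in replicates 1 to 3 and 6.07 to 31.1% in replicates 4 to 6. Between 6 and 9 of the 9 astrocyte markers and between 2 and 6 of the 6 fibroblast markers were above 0 in each of replicates 1 to 3, and all in replicates 4 to 6. The 8 microglial markers summed to 70035 to 78935 in replicates 1 to 3 and to 45722 to 59363 in replicates 4 to 6, with no overlap. The part of these measures in the difference was not tested.

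**Figure D1:**
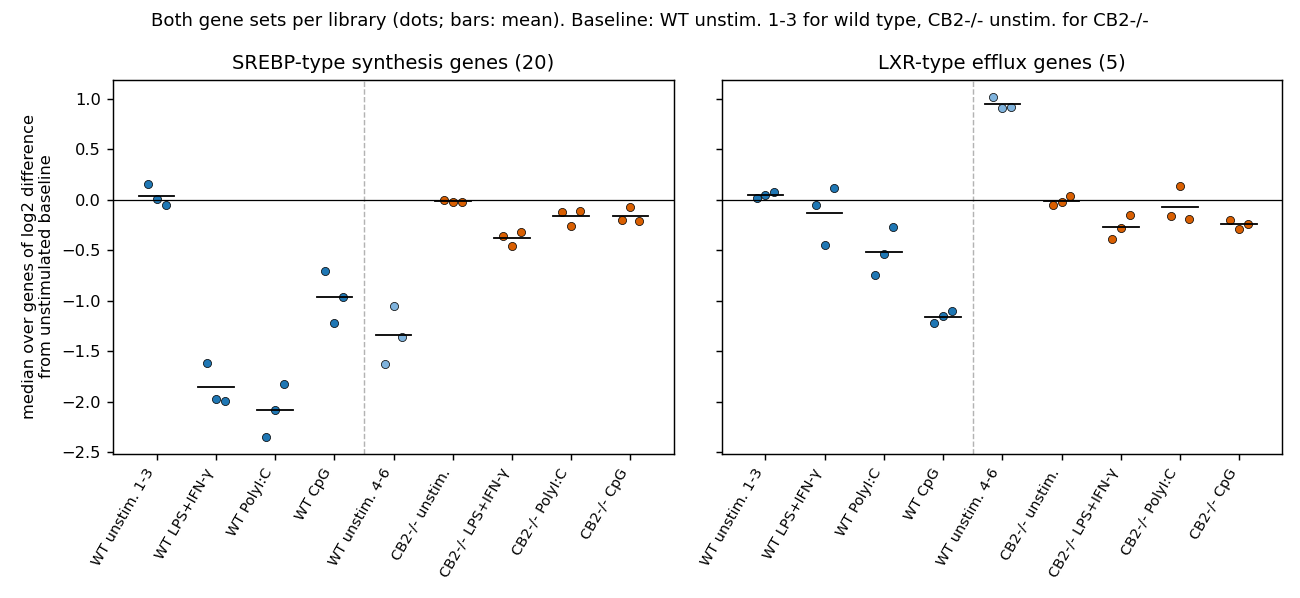
The vertical axis gives, for each library, the median log2 difference of the 20 synthesis-type genes (left) or 5 efflux-type genes (right) from the unstimulated baseline, which is wild-type replicates 1 to 3 for wild type and the unstimulated libraries labelled CB2-/- for the rest; dots are libraries, bars means, and the dashed line divides the number series. Wild-type replicates 4 to 6 sit at -1.63 to -1.05 on the left, among the stimulated wild-type libraries, and at 0.91 to 1.02 on the right, above all others.

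Under LPS/IFN-γ, nearly the whole synthesis pathway fell in wild-type microglia, measured against unstimulated replicates 1 to 3. Of the 37 genes 31 were called, 6 higher and 25 lower (39.7% of all genes called, 21.7% higher and 18% lower). Of the 20 synthesis-type genes 19 fell and 0 rose, median -1.88, while the median of all genes tested was 0.05. Under PolyI:C 31 genes were called too, 4 higher and 27 lower (41.1% of all genes called, 21.2% higher and 19.9% lower). Of the 20 synthesis-type genes 19 fell, with a median of -2.14 beside -0.06 over all genes. Under CpG 24 of 37 were called, 2 higher and 22 lower (36% of all genes called, 16.5% higher and 19.6% lower). Of the 20 synthesis-type genes 14 fell, with a median of -0.99 beside -0.09 over all genes. Efflux-type genes did not move as a block: 2 rose and 2 fell under LPS/IFN-γ, 2 rose and 3 fell under PolyI:C, and 1 rose and 4 fell under CpG.

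**Figure D2:**
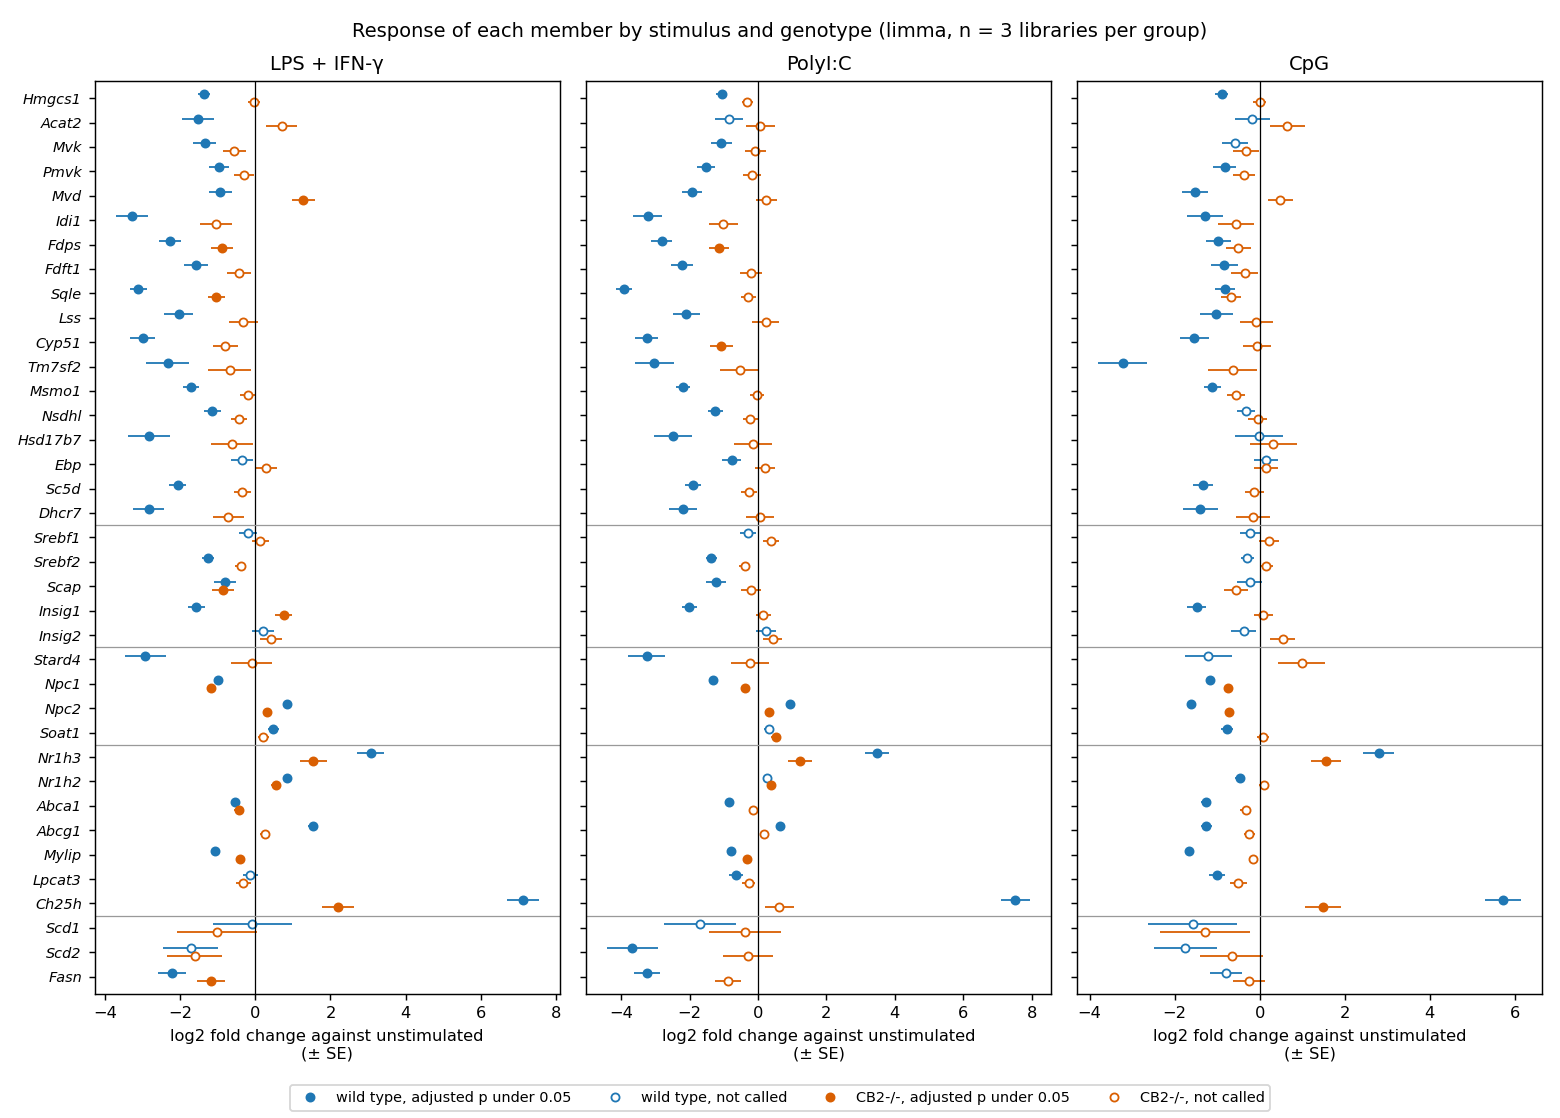
Each row is a gene, grouped by role, and the horizontal axis is its log2 fold change against unstimulated cells of the same label ± SE (n = 3 libraries per group); blue is wild type, orange is labelled CB2-/-, and filled points passed an adjusted p under 0.05. Blue points of the synthesis enzymes lie to the left of 0 for LPS/IFN-γ and PolyI:C, from -3.93 for Sqle to -0.35 for Ebp, while the orange points of these 18 enzymes lie between -1.15 and 1.28.

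The early enzymes build mevalonate and activate it. Hmgcs1 stood at 724, 613 and 607 in unstimulated replicates 1 to 3, at 231, 243 and 281 under LPS/IFN-γ, at 359.8, 317 and 256 under PolyI:C and at 324, 358 and 358 under CpG. All stimulated libraries lay below all of replicates 1 to 3, and the changes were -1.36 ± 0.16, -1.07 ± 0.16 and -0.90 ± 0.16 in that order (adjusted p of 1.81e-07, 6.73e-06 and 8.84e-05, limma, BH). Mvd, the decarboxylase that ends this stretch, changed by -0.93 ± 0.30, -1.93 ± 0.30 and -1.52 ± 0.30 (adjusted p of 0.0162, 1.2e-05 and 0.000303, limma, BH), and its call under LPS/IFN-γ was lost without unstimulated replicate 2 or 3 or without LPS replicate 2. Pmvk, a phosphomevalonate kinase, fell with each stimulus (-0.96, -1.51 and -0.82), the last call being lost without unstimulated replicate 1 or CpG replicate 2. The mevalonate kinase Mvk fell under LPS/IFN-γ (-1.35) and under PolyI:C (-1.08), and Acat2, the thiolase that starts the pathway, was called under LPS/IFN-γ (-1.53) and had -0.85 and -0.17 with the other stimuli.

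The next enzymes lead from isopentenyl units to squalene. Idi1 stood at 427, 292 and 278 in unstimulated replicates 1 to 3, at 20.8, 31.3 and 51.9 under LPS/IFN-γ, at 37.2, 41.9 and 24.9 under PolyI:C and at 126, 185 and 99.3 under CpG. The libraries of LPS/IFN-γ and of PolyI:C held the lowest levels, and the CpG libraries lay between them and replicates 1 to 3 with no overlap. Its changes were -3.29 ± 0.43, -3.23 ± 0.43 and -1.29 ± 0.43 (adjusted p of 7.88e-07, 1.01e-06 and 0.0198, limma, BH), and the CpG call was lost without unstimulated replicate 1 or CpG replicate 3. Fdps stood at 641, 376 and 363 in unstimulated replicates 1 to 3, at 93.7, 105 and 75.7 under LPS/IFN-γ, at 40.7, 66.2 and 88.4 under PolyI:C and at 345, 152 and 221 under CpG, with changes of -2.28 ± 0.29, -2.82 ± 0.29 and -0.97 ± 0.29 (adjusted p of 7.59e-07, 2.42e-08 and 0.0119, limma, BH). The lowest unstimulated value of Fdps lay above the highest CpG value by a narrow margin, and the CpG call was lost without unstimulated replicate 1 or CpG replicate 2. Fdft1, the squalene synthase, changed by -1.59, -2.22 and -0.83, the last being lost in each fit that left out 1 library.

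Squalene epoxidase, encoded by Sqle, makes the first oxygenated sterol precursor and is a known control point of the pathway. It stood at 391, 341 and 315 in unstimulated replicates 1 to 3, at 36.9, 44.5 and 36.5 under LPS/IFN-γ, at 28, 14.7 and 25.5 under PolyI:C and at 217, 172 and 206 under CpG. PolyI:C libraries were lowest, those of LPS/IFN-γ next, CpG between and replicates 1 to 3 highest, with no overlap between any of these 4 groups. The changes were -3.12 ± 0.23, -3.93 ± 0.23 and -0.81 ± 0.23 (adjusted p of 5.57e-11, 8.32e-13 and 0.00723, limma, BH). Cyp51 followed the same order of group means, at 654, 405 and 533 in unstimulated replicates 1 to 3, at 50.2, 79 and 67.3 under LPS/IFN-γ, at 57.9, 44.9 and 60.1 under PolyI:C and at 247, 144 and 159.7 under CpG, although here the libraries of LPS/IFN-γ and of PolyI:C overlapped. Its changes were -2.995 ± 0.34, -3.25 ± 0.34 and -1.54 ± 0.34 (adjusted p of 8.17e-08, 2.16e-08 and 0.000794, limma, BH). Lss, which closes the sterol rings, fell with the first 2 stimuli (-2.04 and -2.10), and its call under CpG (-1.02) was kept in 1 of 6 fits that each left out 1 library.

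The late enzymes trim lanosterol into cholesterol. Msmo1 stood at 729.6, 879 and 741 in unstimulated replicates 1 to 3, at 242, 258 and 214 under LPS/IFN-γ, at 147, 164 and 199 under PolyI:C and at 471, 306 and 325 under CpG. Every stimulated library lay below replicates 1 to 3, and the changes were -1.71 ± 0.20, -2.21 ± 0.20 and -1.11 ± 0.20 (adjusted p of 2.24e-07, 3.39e-09 and 0.000126, limma, BH). Dhcr7, the last reductase, stood at 169, 252 and 149 in unstimulated replicates 1 to 3, at 17.3, 27.4 and 32.7 under LPS/IFN-γ, at 35.1, 33.2 and 55.4 under PolyI:C and at 102, 55.3 and 60.6 under CpG, with the largest change for LPS/IFN-γ (-2.84 ± 0.41, -2.18 ± 0.41 and -1.39 ± 0.41, adjusted p of 3.54e-06, 0.000111 and 0.00925, limma, BH). Its call under CpG was lost without unstimulated replicate 2. Sc5d, the sterol desaturase before it, changed by -2.07, -1.90 and -1.32 on the log2 scale. Hsd17b7, a ketosteroid reductase, fell under LPS/IFN-γ (-2.83 ± 0.56, adjusted p = 0.000223, limma, BH) and PolyI:C (-2.49) and had -0.01 under CpG, where its libraries spread from 74.5 to 254.

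Tm7sf2 had low values, 104, 80 and 86.6 in unstimulated replicates 1 to 3, at 17.5, 19.3 and 14.5 under LPS/IFN-γ, at 5.65, 16.3 and 10.8 under PolyI:C and at 6.56, 3.6 and 25.7 under CpG, and was the enzyme with the lowest change under CpG (-3.22 ± 0.58, adjusted p = 9.11e-05, limma, BH). The 2 lowest CpG values of Tm7sf2 were under 10. Nsdhl, a sterol dehydrogenase, fell under LPS/IFN-γ (-1.14) and PolyI:C (-1.25). Ebp, the sterol isomerase, was called in PolyI:C alone (-0.77), a call kept in 2 of 6 fits that each left out 1 library, and was not called under LPS/IFN-γ (-0.35), the only synthesis-type gene of the 20 for which that holds.

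Of the genes that control SREBP factors, Srebf2 fell with the first 2 stimuli and Srebf1 was not called. Srebf2 stood at 1296, 1281 and 1227 in unstimulated replicates 1 to 3, at 478, 611 and 511 under LPS/IFN-γ, at 382, 549 and 569.6 under PolyI:C and at 1137, 930.1 and 1049 under CpG. The libraries of LPS/IFN-γ and of PolyI:C lay far below replicates 1 to 3, and the CpG libraries lay below them too, but closer (-1.26 ± 0.15, -1.36 ± 0.15 and -0.29 ± 0.15, adjusted p of 3.84e-07, 1.01e-07 and 0.152, limma, BH). Srebf1, which gives the factor more tied to fatty acid synthesis, stood at 372, 674 and 550.0 in unstimulated replicates 1 to 3, at 474, 420.0 and 462 under LPS/IFN-γ, at 308, 498 and 498 under PolyI:C and at 428, 406 and 487 under CpG, all groups overlapping those of replicates 1 to 3, with changes of -0.19 ± 0.23, -0.28 ± 0.23 and -0.23 ± 0.23. Insig1 is itself a usual SREBP target and stood at 864, 624 and 709 in unstimulated replicates 1 to 3, at 276, 226 and 231 under LPS/IFN-γ, at 144, 211 and 192 under PolyI:C and at 276, 246 and 259 under CpG. It fell with each stimulus, with no stimulated library reaching replicates 1 to 3 (-1.57 ± 0.22, -2.005 ± 0.22 and -1.48 ± 0.22, adjusted p of 3.09e-06, 6.92e-08 and 1.04e-05, limma, BH). Insig2, its relative that is not under the same control, had 0.19, 0.22 and -0.37, none called. Scap was lower under PolyI:C (-1.23), and its call under LPS/IFN-γ (-0.81) was lost in each fit that left out 1 library.

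**Figure D3:**
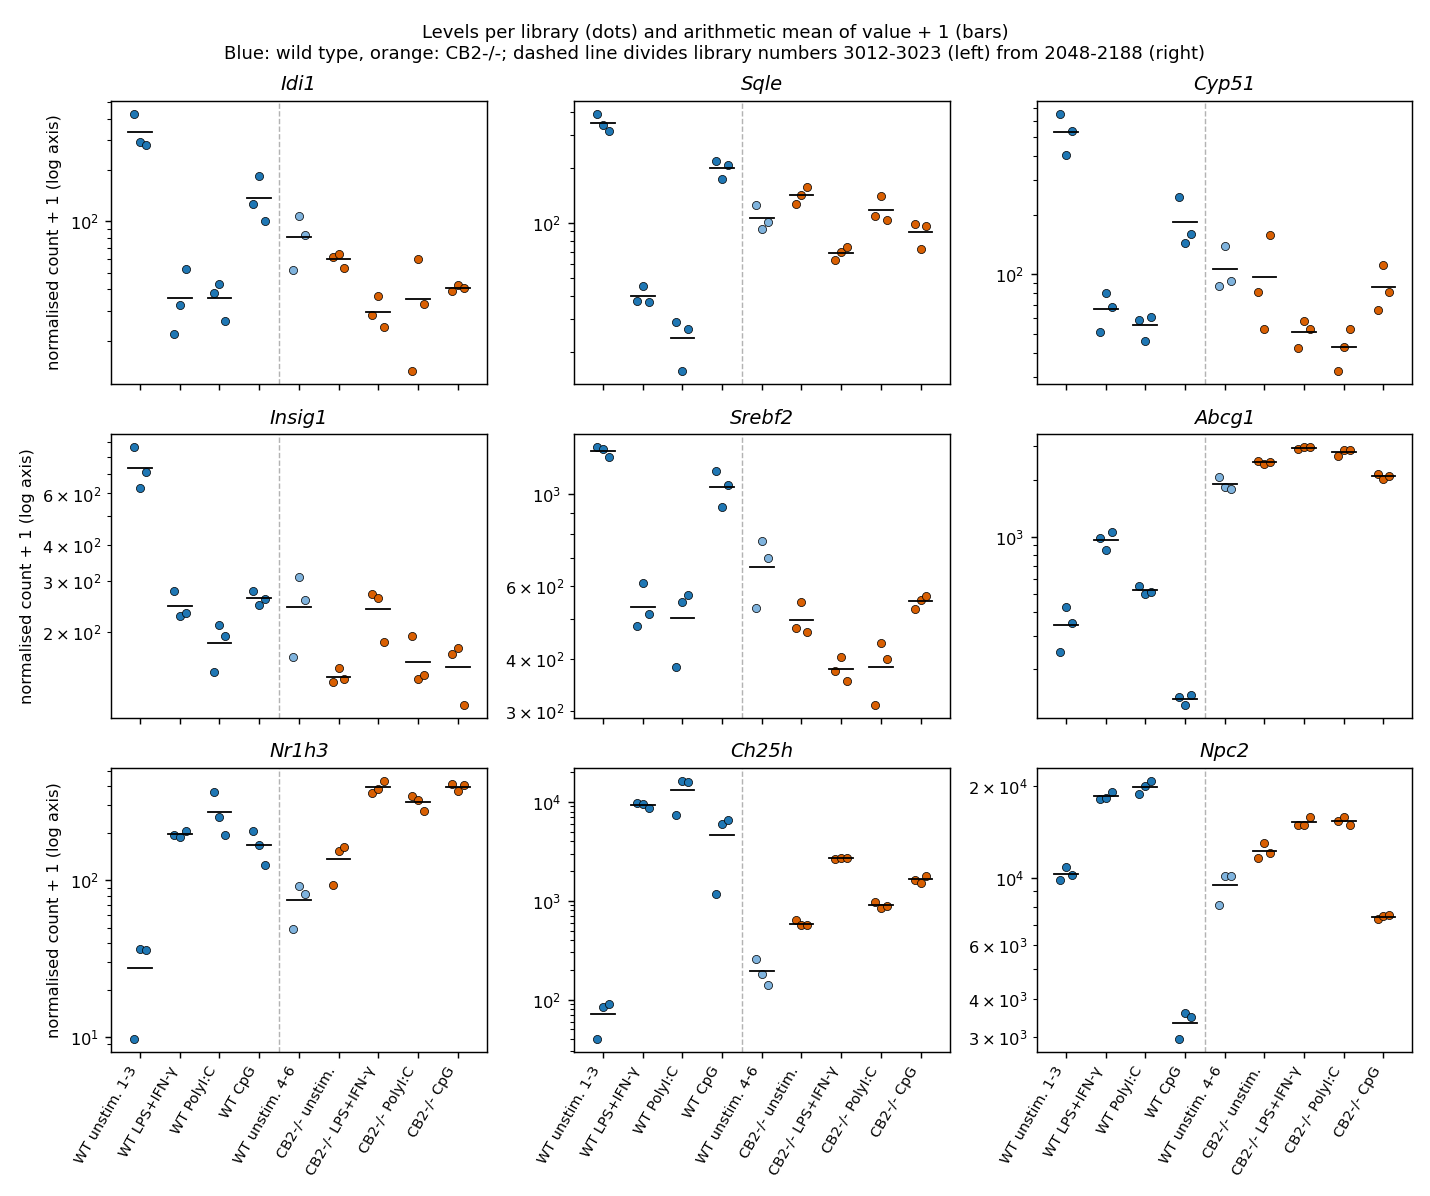
Normalised count + 1 on a log axis for 9 of the genes in every library (dots) with group means (bars); blue is wild type, light blue wild-type unstimulated replicates 4 to 6, orange the libraries labelled CB2-/-, and the dashed line divides the number series. Idi1, Sqle, Cyp51 and Insig1 are highest in wild-type replicates 1 to 3 and Abcg1 is highest to the right of the line, while Ch25h is high in stimulated wild type.

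Among transport and storage genes, Stard4, which ferries sterol between membranes, stood at 211, 266 and 273 in unstimulated replicates 1 to 3, at 54.6, 37.6 and 15.4 under LPS/IFN-γ, at 9.8, 38.8 and 40.3 under PolyI:C and at 133, 77 and 119.9 under CpG. It fell under LPS/IFN-γ (-2.93 ± 0.55, adjusted p = 0.000125) and PolyI:C (-3.26 ± 0.55, adjusted p = 3.22e-05), and its CpG value of -1.21 ± 0.55 was not called (adjusted p = 0.0926, limma, BH). The partners of cholesterol release from late endosomes and lysosomes did not go together. Npc1 fell with each stimulus (-0.999 ± 0.10, -1.30 ± 0.10 and -1.17 ± 0.10, largest adjusted p = 1.05e-08, limma, BH). Npc2 stood at 9846, 10846 and 10208 in unstimulated replicates 1 to 3, at 18102, 18278 and 19098 under LPS/IFN-γ, at 18723, 19957 and 20712 under PolyI:C and at 2964, 3594 and 3482 under CpG, so that it was highest under PolyI:C and under LPS/IFN-γ and lowest under CpG, with no overlap with replicates 1 to 3. Its changes were called in opposite directions (0.84 ± 0.09, 0.94 ± 0.09 and -1.63 ± 0.09, adjusted p of 5.97e-08, 9.92e-09 and 1.2e-12, limma, BH), but with quantile scaling the change under LPS/IFN-γ turned to -0.08. Soat1, which esterifies cholesterol for storage, stood at 1230.1, 1524 and 1359 in unstimulated replicates 1 to 3, at 2037, 1874 and 1802 under LPS/IFN-γ, at 1255, 1855 and 2093 under PolyI:C and at 916, 723 and 782 under CpG. It was called higher under LPS/IFN-γ and lower under CpG (0.48 ± 0.15, 0.31 ± 0.15 and -0.77 ± 0.15, adjusted p of 0.0106, 0.0918 and 0.000178, limma, BH); the first turned to -0.07 with quantile scaling and was lost without unstimulated replicate 1.

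The efflux-type genes split. Nr1h3, which encodes the receptor LXRα, stood at 8.81, 35.8 and 34.8 in unstimulated replicates 1 to 3, at 194, 187 and 206 under LPS/IFN-γ, at 364, 252 and 194 under PolyI:C and at 206, 167 and 124 under CpG. Every stimulated library lay above every unstimulated one of replicates 1 to 3 (3.07 ± 0.36, 3.48 ± 0.36 and 2.80 ± 0.36, largest adjusted p = 1.04e-06, limma, BH). Abca1 went down in the same cells, at 9716, 9948 and 9188 in unstimulated replicates 1 to 3, at 6594, 6687 and 6700.3 under LPS/IFN-γ, at 4733, 5769.8 and 5718 under PolyI:C and at 2900.5, 4719 and 4696 under CpG, with changes of -0.53 ± 0.13, -0.84 ± 0.13 and -1.26 ± 0.13 (adjusted p of 0.00161, 8.02e-06 and 2.25e-08, limma, BH) and no overlap of stimulated with unstimulated libraries. Mylip, the ubiquitin ligase IDOL that marks lipoprotein receptors for degradation, stood at 846, 739 and 726 in unstimulated replicates 1 to 3, at 349, 369.8 and 377 under LPS/IFN-γ, at 457, 425 and 459 under PolyI:C and at 229, 262 and 242 under CpG and fell with each stimulus (-1.07 ± 0.09, -0.78 ± 0.09 and -1.65 ± 0.09, largest adjusted p = 2.38e-07, limma, BH).

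Abcg1, which passes cholesterol to high-density lipoprotein, stood at 247, 425 and 351 in unstimulated replicates 1 to 3, at 981, 849.5 and 1053 under LPS/IFN-γ, at 549, 501 and 509.9 under PolyI:C and at 142, 129 and 146 under CpG. The libraries of LPS/IFN-γ were highest, those of PolyI:C next and those of CpG lowest, with replicates 1 to 3 between those of PolyI:C and CpG and no overlap among the groups. Its changes were called in opposite directions, 1.52 ± 0.13, 0.64 ± 0.13 and -1.25 ± 0.13 (adjusted p of 5.91e-10, 0.000232 and 2.78e-08, limma, BH). Lpcat3, which loads polyunsaturated chains into phospholipids, stood at 516, 428 and 521 in unstimulated replicates 1 to 3, at 469, 356 and 526 under LPS/IFN-γ, at 225, 335 and 402 under PolyI:C and at 288, 218 and 225 under CpG. It was lower under CpG (-1.01 ± 0.20, adjusted p = 0.000228) and PolyI:C (-0.64 ± 0.20, adjusted p = 0.0102, lost without PolyI:C replicate 1) and had -0.13 under LPS/IFN-γ (limma, BH). Nr1h2, which encodes LXRβ, was called higher under LPS/IFN-γ (0.85) and lower under CpG (-0.46), with 0.27 for PolyI:C.

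Ch25h, the cholesterol hydroxylase named above, showed the largest change of the 37 genes with each stimulus. It stood at 39.3, 82.4 and 90 in unstimulated replicates 1 to 3, at 9820.3, 9457 and 8790.5 under LPS/IFN-γ, at 7311, 16291 and 16063 under PolyI:C and at 1166, 5997 and 6587 under CpG. All stimulated libraries lay far above replicates 1 to 3, and replicate 1 of CpG and of PolyI:C lay well below its 2 companions. The changes were 7.12 ± 0.42, 7.53 ± 0.42 and 5.73 ± 0.42 (largest adjusted p = 1.08e-10, limma, BH).

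Of the 3 genes of fatty acid synthesis 1 fell under LPS/IFN-γ, 2 under PolyI:C and 0 were called under CpG. Fasn, the fatty acid synthase, stood at 653, 595 and 670.3 in unstimulated replicates 1 to 3, at 70.9, 165 and 217 under LPS/IFN-γ, at 48.5, 79.9 and 75.3 under PolyI:C and at 616, 263 and 315 under CpG. The PolyI:C libraries were lowest, and 1 CpG library lay within the range of replicates 1 to 3 (-2.22 ± 0.38, -3.25 ± 0.38 and -0.78 ± 0.38, adjusted p of 3.61e-05, 1.34e-07 and 0.112, limma, BH). Scd2, a desaturase that places the first double bond in saturated chains, stood at 617, 1155 and 619 in unstimulated replicates 1 to 3, at 268, 252 and 179.7 under LPS/IFN-γ, at 9.44, 146 and 138 under PolyI:C and at 46.5, 343 and 718 under CpG, with a PolyI:C replicate 1 far under the other libraries, and was called under PolyI:C (-3.68 ± 0.74, adjusted p = 0.000252, limma, BH) and not with the others (-1.72 and -1.75). Scd1, its relative, stood at 18.6, 138 and 41.3 in unstimulated replicates 1 to 3, at 31.7, 66.1 and 43.3 under LPS/IFN-γ, at 4.72, 21.7 and 24.6 under PolyI:C and at 0, 46.6 and 90 under CpG. Every stimulated group of Scd1 overlapped replicates 1 to 3 and no change was called (-0.08 ± 1.05, -1.70 ± 1.05 and -1.58 ± 1.05); Scd1 and Scd2 are near relatives that can share reads, which makes their split uncertain. In wild type marker sums of other cells varied along with Scd2. PolyI:C replicates 1 to 3 had astrocyte sums of 50.7, 505 and 585 and fibroblast sums of 50.4, 905 and 789. The CpG libraries had 100.1, 873 and 1415 for astrocytes and 12.1, 1232 and 2111 for fibroblasts. In both groups replicate 1 was lowest in these sums as in Scd1 and Scd2, and their part in these changes was not tested.

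Compared with each other, the stimuli differed mainly between CpG and the rest. LPS/IFN-γ against PolyI:C gave 4 of 37 genes called, all higher (9.26% of all genes called, 5.35% higher and 3.91% lower). They were Mvd (1.000), Sqle (0.81), Nr1h2 (0.58) and Abcg1 (0.88 ± 0.13, adjusted p = 3.7e-05, limma, BH). Against CpG it gave 23, 8 higher and 15 lower (32.8% of all genes called, 19.7% higher and 13.1% lower). Of the synthesis-type genes 13 of 20 were lower and 0 higher, median -0.80, and of the efflux-type genes 4 of 5 were higher, median 0.73, beside a median of 0.15 over all genes. Sqle (-2.31 ± 0.23, adjusted p = 1.77e-08) and Hsd17b7 (-2.82 ± 0.56, adjusted p = 0.000317) were the synthesis genes with the largest differences, and Abcg1 (2.78 ± 0.13, adjusted p = 1.32e-14) and Npc2 (2.47 ± 0.09, adjusted p = 3.14e-16) the genes with the largest differences the other way (limma, BH). PolyI:C against CpG gave 21, 7 higher and 14 lower (30.1% of all genes called, 17.6% higher and 12.5% lower). Here 11 of 20 synthesis-type genes were lower, median -0.92, and 3 of 5 efflux-type genes higher, median 0.68, beside 0.02 over all genes. The difference in Abca1 there (0.43) turned to -0.15 with quantile scaling. Quantile scaling moved the median of all genes by -0.28 and -0.15 in the comparisons under CpG.

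Because the 2 sets of unstimulated wild-type libraries differed, the wild-type responses were also taken against replicates 4 to 6, an alternative chosen after the data were seen. Synthesis-type genes then fell in 6 of 20 cases under LPS/IFN-γ (median -0.44) and in 13 of 20 under PolyI:C (median -0.86). Under CpG 1 fell and 4 rose (median 0.42). For efflux-type genes the medians were -0.98, -1.50 and -2.21, with 3, 4 and 4 of 5 lower and 1 higher in each. Shares and medians over all genes were not computed for this baseline, so none stand beside these counts. The 6 synthesis-type genes whose falls were called against both sets and under both stimuli were Sqle (-1.39 and -2.20 against replicates 4 to 6, for LPS/IFN-γ and PolyI:C), Idi1 (-1.21 and -1.15), Dhcr7 (-1.88 and -1.22), Sc5d (-1.35 and -1.19), Hsd17b7 (-1.92 and -1.58) and Mvk (-1.07 and -0.79). Insig1 and Msmo1 came to 0.06 and 0.04 under LPS/IFN-γ.

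Abcg1 turned from 1.52 to -0.98 under LPS/IFN-γ and from 0.64 to -1.86 under PolyI:C, each called in both directions, and CpG gave -3.76. Ch25h (5.63, 6.04 and 4.25) and Nr1h3 (1.45, 1.87 and 1.19) rose against either set with each stimulus. Abca1 (-1.48, -1.78 and -2.21), Mylip (-1.79, -1.50 and -2.37) and Npc1 (-1.37, -1.68 and -1.55) fell against either set. Fasn fell against either set under LPS/IFN-γ (-1.40) and PolyI:C (-2.43).

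**Figure D4:**
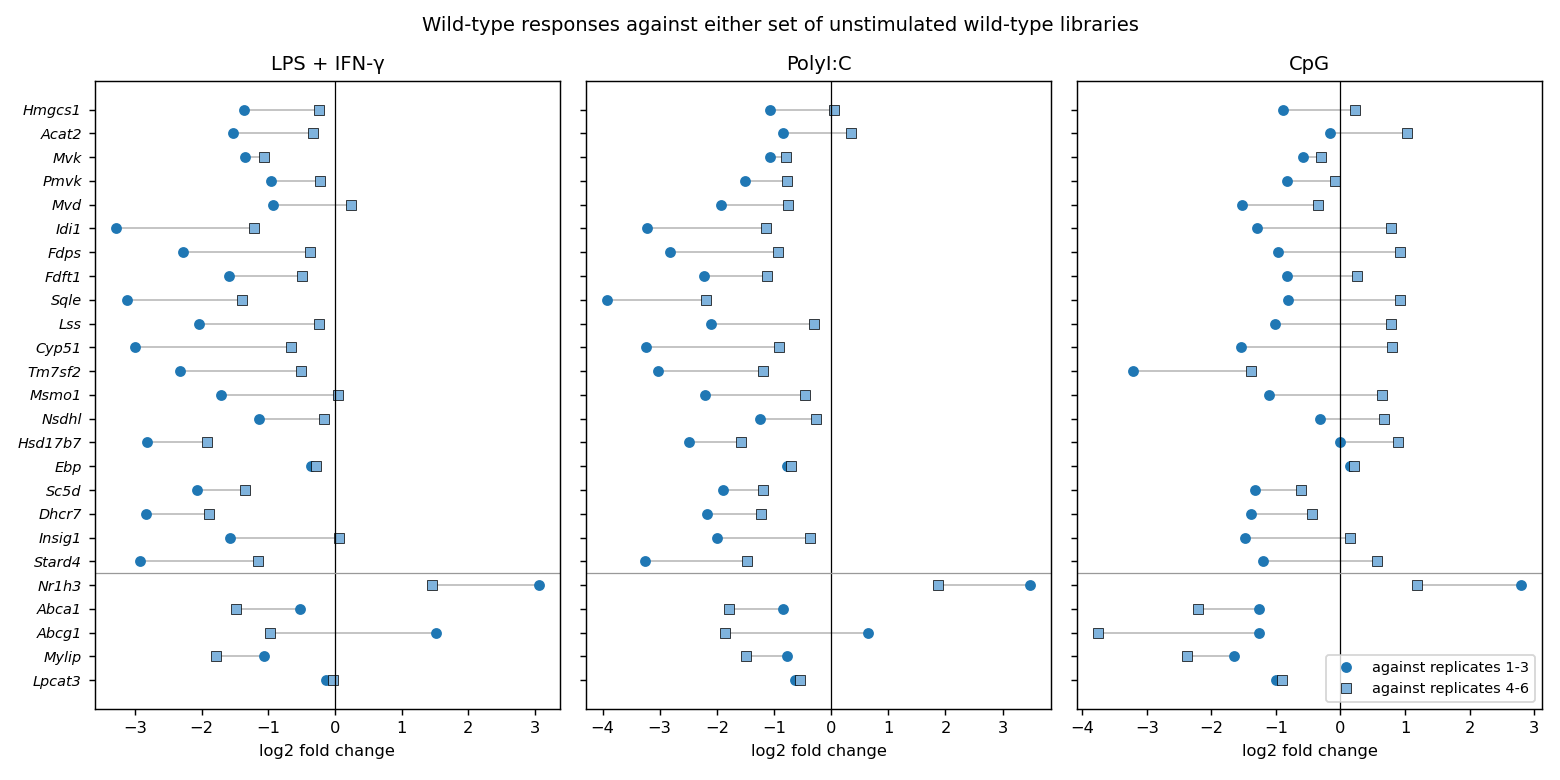
Log2 fold change of the 20 synthesis-type genes (above the grey line) and 5 efflux-type genes (below it) in wild type with each stimulus, against unstimulated replicates 1 to 3 (circles) or 4 to 6 (squares). The squares of the synthesis-type genes lie nearer to 0 or, under CpG, mostly to its right, and Abcg1 crosses from 1.52 to -0.98 under LPS/IFN-γ.

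In the libraries labelled CB2-/- the same stimuli gave fewer calls than in wild type, both among these genes and among all genes. In wild type, against replicates 1 to 3, 39.7, 41.1 and 36% of all genes were called under LPS/IFN-γ, PolyI:C and CpG. Genotype and number series cannot be told apart in this. LPS/IFN-γ gave 13 of 37 called, 6 higher and 7 lower (23.7% of all genes called, 12.8% higher and 10.9% lower). PolyI:C gave 8, 4 higher and 4 lower (8.55% of all genes called, 5.11% higher and 3.44% lower). CpG gave 4, 2 higher and 2 lower (14.3% of all genes called, 6.82% higher and 7.44% lower). Of the 20 synthesis-type genes 2 rose and 2 fell under LPS/IFN-γ, 0 rose and 2 fell under PolyI:C, and 0 were called under CpG. Their medians were -0.38, -0.18 and -0.10 beside 0.03, 0.01 and 0 over all genes tested. Of the 5 efflux-type genes 1 rose under each stimulus, and 2, 1 and 0 fell. Calls under PolyI:C were few in each fit that left out 1 library, 1 to 4 of 37. The share of summed values held by Gm19220, Gm26822 and Grip2 ran from 0.0741 to 50.8% over the libraries labelled CB2-/-. It was highest in PolyI:C replicate 2, and its part in these counts was not tested.

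Sqle stood at 126, 141 and 155 unstimulated, at 61.9, 69 and 73.4 under LPS/IFN-γ, at 108, 139 and 102 under PolyI:C and at 98.3, 71.3 and 95 under CpG. All libraries of LPS/IFN-γ and CpG lay below the unstimulated ones, and those of PolyI:C overlapped them (-1.04 ± 0.23, -0.28 ± 0.23 and -0.68 ± 0.23, adjusted p of 0.00139, 0.552 and 0.0501, limma, BH). Idi1 stood at 61.1, 63.4 and 52.2 unstimulated, at 27.2, 35.4 and 23 under LPS/IFN-γ, at 12.2, 58.8 and 31.9 under PolyI:C and at 37.8, 41.2 and 39.9 under CpG. No change was called (-1.04 ± 0.43, -1.01 ± 0.43 and -0.56 ± 0.43, adjusted p of 0.0844, 0.166 and 0.507, limma, BH). Cyp51 stood at 80.2, 51.7 and 157 unstimulated, at 41.4, 57.2 and 51.6 under LPS/IFN-γ, at 31.2, 41.7 and 51.8 under PolyI:C and at 64.9, 111 and 80.8 under CpG, the third unstimulated library being the highest. Its changes were -0.80 ± 0.34, -1.07 ± 0.34 and -0.06 ± 0.34. The call under PolyI:C (adjusted p = 0.0474, limma, BH) held in 2 of 6 fits that each left out 1 library. Fdps fell under LPS/IFN-γ (-0.88, kept in 1 of 6 such fits) and under PolyI:C (-1.15, kept in 4 of 6). Hmgcs1, at 259.6, 203 and 179 unstimulated, at 192, 208 and 213 under LPS/IFN-γ, at 137, 195 and 183 under PolyI:C and at 212, 219.7 and 202 under CpG, and Msmo1, at 254, 272 and 258 unstimulated, at 231, 251 and 204 under LPS/IFN-γ, at 298, 193 and 298 under PolyI:C and at 198, 205 and 138 under CpG, had no call. The other synthesis enzymes without a call, Acat2, Mvk, Pmvk, Fdft1, Lss, Tm7sf2, Nsdhl, Hsd17b7, Ebp, Sc5d and Dhcr7, ranged from -0.72 (Dhcr7) to 0.70 (Acat2) over the 3 stimuli.

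A pair of synthesis-type genes rose under LPS/IFN-γ. Mvd stood at 64.1, 52.6 and 32.6 without stimulus and at 104, 132 and 118 with it, with no overlap (1.28 ± 0.30, adjusted p = 0.00253, limma, BH). Insig1 stood at 133, 149 and 136 unstimulated, at 269, 261 and 184 under LPS/IFN-γ, at 193, 137 and 141 under PolyI:C and at 167, 175 and 111 under CpG, highest under LPS/IFN-γ (0.75 ± 0.22, 0.16 ± 0.22 and 0.09 ± 0.22, adjusted p of 0.0149, 0.772 and 0.892, limma, BH). The Insig1 call was lost without LPS replicate 1 or 2 of that label. Both genes fell with this stimulus in wild type against replicates 1 to 3, so their calls ran in opposite directions in the 2 genotypes, while against replicates 4 to 6 wild type gave 0.24 and 0.06, not called.

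Srebf2 stood at 474, 547 and 464 unstimulated, at 374, 403 and 353 under LPS/IFN-γ, at 309, 436 and 399 under PolyI:C and at 528, 555 and 565 under CpG, lower in every library of LPS/IFN-γ and PolyI:C than in any unstimulated one (-0.39 ± 0.15, -0.39 ± 0.15 and 0.15 ± 0.15, adjusted p of 0.0711, 0.139 and 0.65, limma, BH), and was not called. Srebf1 stood at 645, 668 and 715 unstimulated, at 795, 768 and 663 under LPS/IFN-γ, at 1296, 691 and 755 under PolyI:C and at 788, 938 and 667 under CpG with 0.13 ± 0.23, 0.38 ± 0.23 and 0.23 ± 0.23, not called either. Scap was lower under LPS/IFN-γ (-0.85, kept in 2 of 6 fits that each left out 1 library). Insig2 was not called (0.41, 0.42 and 0.54). Stard4 was at 37.1, 23.3 and 17.4 unstimulated, at 30.1, 15.2 and 26.8 under LPS/IFN-γ, at 10.9, 20.2 and 40.7 under PolyI:C and at 68.3, 55.1 and 33.3 under CpG, with no call.

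Npc1 fell with each stimulus (-1.18 ± 0.10, -0.39 ± 0.10 and -0.74 ± 0.10, adjusted p of 1.65e-09, 0.0131 and 4.47e-06, limma, BH), the PolyI:C call being lost without unstimulated or PolyI:C replicate 1. Npc2 stood at 11582, 12968 and 11999 unstimulated, at 14825, 14910.0 and 15753 under LPS/IFN-γ, at 15361, 15830.0 and 14888 under PolyI:C and at 7285, 7466 and 7552 under CpG. As in wild type, it was highest under LPS/IFN-γ and under PolyI:C and lowest under CpG, without overlap with the unstimulated libraries (0.32 ± 0.09, 0.34 ± 0.09 and -0.71 ± 0.09, adjusted p of 0.0138, 0.0237 and 3.39e-06, limma, BH). Quantile scaling turned its change under LPS/IFN-γ to -0.13. Soat1 stood at 1997, 1908 and 2084 unstimulated, at 2365, 2363 and 2222 under LPS/IFN-γ, at 2889, 2841 and 2884 under PolyI:C and at 1897, 1972 and 2532 under CpG and was called under PolyI:C (0.53 ± 0.15, adjusted p = 0.0234, limma, BH), a call kept in 1 of 6 fits that each left out 1 library.

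Nr1h3 stood at 92.6, 154 and 163 unstimulated, at 357, 383 and 428 under LPS/IFN-γ, at 343, 322 and 274 under PolyI:C and at 409, 368 and 404 under CpG, with every stimulated library above the unstimulated ones (1.55 ± 0.36, 1.23 ± 0.36 and 1.56 ± 0.36, adjusted p of 0.00216, 0.0331 and 0.00316, limma, BH); the PolyI:C call was kept in 1 of 6 fits that each left out 1 library. Nr1h2 was higher under LPS/IFN-γ (0.54) and, in 1 of 6 such fits, under PolyI:C (0.39). Abcg1 stood at 2502, 2428 and 2471 unstimulated, at 2907, 2958 and 2953 under LPS/IFN-γ, at 2676, 2864 and 2862 under PolyI:C and at 2143, 2021 and 2080.3 under CpG. Every stimulated group lay clear of the unstimulated one, and no change was called (0.25 ± 0.13, 0.18 ± 0.13 and -0.25 ± 0.13, adjusted p of 0.176, 0.471 and 0.258, limma, BH). Abca1 stood at 13852, 12052 and 13425 unstimulated, at 9757, 9698 and 9541 under LPS/IFN-γ, at 11690.0, 12699 and 11468 under PolyI:C and at 10281, 10613 and 10369 under CpG, lowest under LPS/IFN-γ (-0.44 ± 0.13, adjusted p = 0.0128, limma, BH, lost without unstimulated replicate 1).

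Mylip stood at 1181, 1202 and 1307 unstimulated, at 939, 856 and 996 under LPS/IFN-γ, at 1091, 927 and 934 under PolyI:C and at 1131, 1064 and 1090.4 under CpG, below the unstimulated libraries with every stimulus, and was called under LPS/IFN-γ and under PolyI:C (-0.40 ± 0.09, -0.32 ± 0.09 and -0.17 ± 0.09, adjusted p of 0.00212, 0.0305 and 0.307, limma, BH; the PolyI:C call was kept in 1 of 6 fits that each left out 1 library). Lpcat3 stood at 449.8, 536 and 475 unstimulated, at 336, 399 and 438 under LPS/IFN-γ, at 374, 533 and 323 under PolyI:C and at 378, 327 and 327 under CpG with no call. Ch25h stood at 636, 564 and 564 unstimulated, at 2649, 2725 and 2734 under LPS/IFN-γ, at 979.8, 847 and 889 under PolyI:C and at 1641, 1504 and 1796 under CpG. All stimulated libraries lay above the unstimulated ones, most under LPS/IFN-γ and least under PolyI:C (2.20 ± 0.42, 0.62 ± 0.42 and 1.48 ± 0.42, adjusted p of 0.00032, 0.455 and 0.0174, limma, BH). Without unstimulated replicate 2 or 3 or CpG replicate 3 the CpG call was lost.

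Fasn stood at 110.0, 119 and 183 unstimulated, at 60.6, 51.9 and 62.7 under LPS/IFN-γ, at 123, 39.7 and 75.7 under PolyI:C and at 127, 112 and 101 under CpG, lowest under LPS/IFN-γ (-1.19 ± 0.38, adjusted p = 0.0225, limma, BH, kept in 3 of 6 fits that each left out 1 library). Scd2 stood at 2652, 3282 and 3274 unstimulated, at 958, 998 and 1036 under LPS/IFN-γ, at 2536, 2475 and 2497 under PolyI:C and at 1752, 2042 and 2036 under CpG, where the libraries of LPS/IFN-γ were lowest and all stimulated ones lay below the unstimulated ones, but its changes were not called (-1.61 ± 0.74, -0.29 ± 0.74 and -0.66 ± 0.74). Scd1 stood at 12.7, 29.8 and 16.8 unstimulated, at 7.91, 7.32 and 11.1 under LPS/IFN-γ, at 23.1, 9.74 and 12 under PolyI:C and at 11.6, 3.08 and 9.16 under CpG with -1.02 ± 1.05, -0.38 ± 1.05 and -1.28 ± 1.05, not called. Between stimuli in these libraries 4 or 5 of the 37 genes were called in each pair. LPS/IFN-γ against PolyI:C gave 4, 2 higher and 2 lower (11.9% of all genes called, 6.95% higher and 4.96% lower). LPS/IFN-γ against CpG gave 5, 3 higher and 2 lower (10.2% of all genes called, 6.36% higher and 3.82% lower). PolyI:C against CpG gave 5, 4 higher and 1 lower (12% of all genes called, 6.39% higher and 5.56% lower). Npc2 gave the largest called differences from CpG, 1.03 ± 0.09 (adjusted p = 1.5e-08) and 1.05 ± 0.09 (adjusted p = 2.35e-08, limma, BH) for LPS/IFN-γ and PolyI:C. Ch25h gave that of the first pair (1.58 ± 0.42, adjusted p = 0.0134, limma, BH).

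The difference between genotypes was tested as the response in cells labelled CB2-/- minus the response in wild type. With replicates 1 to 3 as the wild-type baseline it was called for 18 of 37 genes under LPS/IFN-γ, 15 higher and 3 lower (12.3% of all genes called, 3.98% higher and 8.36% lower). Under PolyI:C it was called for 26, 23 higher and 3 lower (24.8% of all genes called, 10.8% higher and 13.9% lower), and under CpG for 14, 13 higher and 1 lower (11.8% of all genes called, 6.11% higher and 5.66% lower). Of the 20 synthesis-type genes 13, 17 and 6 were higher and 0 lower, with medians of 1.72, 2.17 and 0.78 beside -0.02, 0.08 and 0.10 over all genes tested. With replicates 4 to 6 as the baseline, the counts of synthesis-type genes higher became 1, 2 and 0, with 3 lower for CpG, and the medians 0.27, 0.64 and -0.33. Most of the called synthesis-type differences therefore rested on which wild-type unstimulated libraries were taken. Shares and medians over all genes were not computed with replicates 4 to 6 as the baseline. The genotypes' stimulated libraries belong to different number series with either baseline, and genotype and series cannot be told apart.

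Below, each value against replicates 1 to 3 comes before that against replicates 4 to 6, and every difference called in the same direction with either baseline is given. Ch25h differed with each stimulus, its rise in cells labelled CB2-/- being the smaller (-4.91 ± 0.60, -6.90 ± 0.60 and -4.25 ± 0.60, largest adjusted p = 3.44e-05, limma, BH, and -3.43, -5.42 and -2.77 with replicates 4 to 6). Sqle, which fell under PolyI:C in wild type, differed by 3.65 ± 0.33 (adjusted p = 9.16e-09, limma, BH) or 1.92. Sc5d differed under LPS/IFN-γ (1.72 or 1.01) and under PolyI:C (1.65 or 0.93). Fasn (2.36 or 1.54) and Scd2 (3.39 or 5.84, lost against replicates 1 to 3 without wild-type PolyI:C replicate 1) differed under PolyI:C.

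On the efflux side the fall of Mylip was the smaller in cells labelled CB2-/- with each stimulus (0.67 ± 0.13, 0.46 ± 0.13 and 1.49 ± 0.13, largest adjusted p = 0.0128, limma, BH, and 1.38, 1.17 and 2.20 with replicates 4 to 6). Abca1 differed under PolyI:C (0.70 or 1.65) and CpG (0.93 or 1.88), as did Abcg1 under CpG (1.01 or 3.51). Under LPS/IFN-γ the difference in Abcg1 turned from -1.27 ± 0.18 (adjusted p = 2.6e-05, limma, BH) to 1.23 ± 0.18 (adjusted p = 4.14e-05) with the other baseline. Npc1 differed under PolyI:C (0.91 or 1.29) and CpG (0.43 or 0.80), the latter kept in 2 of 12 fits that each left out 1 library. Nr1h2 differed under CpG (0.55 or 0.88, kept in 7 of 12), as did Soat1 (0.85 or 1.59). Npc2 differed under CpG (0.91 or 0.78) and, the other way, under LPS/IFN-γ (-0.53 or -0.66) and PolyI:C (-0.61 or -0.74); the last turned to 0.15 with quantile scaling.

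Most other synthesis-type differences changed with the baseline. Under LPS/IFN-γ Insig1 differed by 2.32 ± 0.32 (adjusted p = 1.38e-05, limma, BH) against replicates 1 to 3 and by 0.69 ± 0.32 against replicates 4 to 6, and Idi1 by 2.25 ± 0.60 and 0.17 ± 0.60. Under CpG the difference in Fdps turned from 0.46 to -1.44 and that in Sqle from 0.14 to -1.59, both called only in the latter. Astrocyte markers, summed over the 9 genes, were at 179 to 381 in all libraries labelled CB2-/-, at 719 to 866, 50.7 to 585 and 100.1 to 1415 in wild type under LPS/IFN-γ, PolyI:C and CpG, and at 205 to 1077 in replicates 1 to 3. Fibroblast markers summed to 27.4 to 95.3 in cells labelled CB2-/- and, in stimulated wild type, to 12.1 to 2111. In any 1 library 4 to 9 of the 9 and 2 to 6 of the 6 were above 0, and S100b was at 0 in all CpG libraries labelled CB2-/-. Gm19220, Gm26822 and Grip2 held 0.0741 to 50.8% of summed values in libraries labelled CB2-/- and at most 0.0045% in stimulated wild type. The part of these measures in the differences was not tested.

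Without stimulus the libraries labelled CB2-/- were set against wild-type replicates 4 to 6, and 5 of the 37 genes were called, 2 higher and 3 lower (9.9% of all genes called, 6.25% higher and 3.65% lower). Of the 18 synthesis enzymes 0 were called (limma, BH). Ch25h was higher, at 636, 564 and 564 against 256, 183 and 141 (1.64 ± 0.42, adjusted p = 0.0139, limma, BH). Fasn was lower, at 110.0, 119 and 183 against 296, 453 and 352 (-1.43 ± 0.38, adjusted p = 0.0159, limma, BH), and in neither gene did the groups overlap. Insig1 (-0.75 ± 0.22) and Abca1 (-0.50 ± 0.13) were lower and Npc2 (0.37 ± 0.09) higher, with a largest adjusted p of 0.0341 (limma, BH). The other 32 ranged from -1.86 (Scd1) to 0.89 (Nr1h3). These groups carry separate runs of library numbers, which cannot be told apart from genotype here. Markers of other cell types differed between these groups too. The 9 astrocyte markers summed to 211 to 310.4 in the libraries labelled CB2-/- (8 or 9 above 0) and to 1600.2 to 2674 in replicates 4 to 6. The 6 fibroblast markers summed to 58.3 to 93.4 (5 or 6 above 0) against 691 to 2475, and the 8 microglial markers to 42291 to 44974 against 45722 to 59363. Gm19220, Gm26822 and Grip2 held 1.57, 0.0741 and 20.3% of summed values in the libraries labelled CB2-/- and 6.07, 31.1 and 21.4% in replicates 4 to 6. The part of these measures in the calls was not tested.

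These calls depended on single libraries. The count ran from 1 to 12 over fits that each left out 1 library: it was 1 without CB2-/- replicate 2, 2 without wild-type replicate 5, 3 without CB2-/- replicate 1 or wild-type replicate 6, and 12 without wild-type replicate 4. With the authors' batch-corrected values the comparison was made with all 6 wild-type unstimulated libraries, not only replicates 4 to 6. In that fit 21 genes were called, 6 higher and 15 lower, and 13 of the 20 synthesis-type genes were lower. The part of replicates 1 to 3 in this was not tested. The share of all genes called was not computed for these other fits. There Abca1 turned to 0.09, Mylip to 0.24, Scd2 to 1.28 and Msmo1 to -0.57. Which batches were removed is not given in the sources used here.

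Around the 37 genes, 30 other genes of the same pathways were looked at, and all 30 were tested. Of these, 22 were called under LPS/IFN-γ in wild type (7 higher, 15 lower), 19 under PolyI:C (5 and 14) and 15 under CpG (4 and 11), beside 39.7, 41.1 and 36% of all genes tested. Cyp27a1, a mitochondrial sterol hydroxylase of oxysterol and bile acid synthesis, had the lowest change of the 30 with each stimulus (-4.93 ± 0.73, -4.999 ± 0.73 and -5.56 ± 0.73, largest adjusted p = 5.96e-06, limma, BH). Fads1, a desaturase of polyunsaturated fatty acids, fell with each too (-2.996, -4.16 and -1.44), and Lipa, the lysosomal acid lipase, fell with each stimulus (-2.24, -2.70 and -2.19). So did Nceh1, which hydrolyses cholesteryl esters (-1.46, -2.38 and -2.72). Lpl, lipoprotein lipase, fell under LPS/IFN-γ (-1.19) and PolyI:C (-2.85) and was at -0.51 under CpG, not called. Soat2, a relative of Soat1, rose with each stimulus (2.23, 3.22 and 2.02), and the coactivator gene Ppargc1b rose under LPS/IFN-γ (2.25), with -1.16 under PolyI:C and -0.28 under CpG not called.

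In the libraries labelled CB2-/- 14 of the 30 were called under LPS/IFN-γ (1 higher, 13 lower), 7 under PolyI:C (1 and 6) and 10 under CpG (2 and 8), beside 23.7, 8.55 and 14.3% of all genes. Lpl (-2.08, -1.78 and -2.01), Fads1 (-2.32, -1.29 and -1.996) and Lipa (-2.22, -0.90 and -1.41) fell with all 3 stimuli (largest adjusted p = 0.00293, limma, BH). Cyp27a1 fell under LPS/IFN-γ (-2.87) and CpG (-2.18), with -1.02 under PolyI:C not called. Nceh1 fell with each stimulus (-1.16, -0.62 and -1.72), and Cd36, a scavenger receptor that takes up lipids, under LPS/IFN-γ (-1.45) and PolyI:C (-0.66), with -0.50 under CpG not called. Between the 2 sets of unstimulated wild-type libraries 8 of the 30 were called, 3 higher and 5 lower in replicates 4 to 6 (all genes 12%), with Soat2 (1.61), Cd36 (1.25) and the lipid droplet protein Plin2 (1.09) higher and Tmem97, a sterol-binding membrane protein, lower (-1.22). Between the unstimulated genotypes 7 of the 30 were called, 2 higher and 5 lower (all genes 9.9%), led by Acss2, the acetyl-CoA synthetase (-1.66), Mbtps2, the protease that frees SREBP factors from the membrane (-0.96), and Lpl (-0.93).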

How the data were processed

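RNA of 27 microglia libraries was sequenced as single ends, per the labels' protocols. The authors deposited normalised counts per gene, a signal that is not whole reads, and a batch-corrected table on a log2 scale. The tools listed in the submitters' processing notes are kallisto, DESeq2 and CASAVA 1.8, without a statement of what each did. Their genome build was not given in the sources used here. Per the labels' protocols 2 ways of making libraries were used, and which library had which is not stated; their part in differences between number series was not tested.

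Testing was limited to genes that reached a normalised count of 10 in 3 or more libraries, 14668 of 23995. limma 3.58.1 in R 4.3.3 was fitted once to log2(value + 1) of all 27 libraries with group and number series as 9 means (trended empirical Bayes, two-sided, Benjamini-Hochberg), for 17 comparisons. The fit was tested on simulated data with fewer groups than the real data. Every simulated gene was given the same dispersion, whereas the SEs of the genes above differ widely. The numbers recovered therefore do not describe single genes here. Of 50 genes each, changes of 1.5, 2 and 4 times were called in 3, 27 and 49 for a PolyI:C response. For a genotype difference under PolyI:C they were called in 0, 6 and 41. A gene not called was therefore not shown to be unchanged. The members and gene lists were chosen with earlier results of these data known. Every member may be named. The rule gives full statistics to called members with the 8 largest changes per comparison, values in every library to a panel of 21 genes, up to 4 called genes per comparison of the other 30 by size of change, and names members called in opposite directions whatever their size. Promoters came from RefSeq for GRCm38.p6. Lists of markers were summed for microglia, astrocytes, fibroblasts and oligodendrocyte lineage (737 to 2030, summed over 8 genes, in all libraries). Alternatives were other pseudocounts, no filter, quantile scaling, library weights, other sets of libraries and baselines, and the batch-corrected table. Of 27 pairs of replicates, 0 held identical values. Python 3.11.15 with pandas 2.3.3 handled the tables, and matplotlib 3.10.9 the plots.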

Additional observations from a re-analysis of the deposited data

Results flagged for a closer look

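In 58 cases a gene's response differed between cells labelled CB2-/- and wild type, by the test of the difference itself with wild-type replicates 1 to 3 as baseline (limma, adjusted p under 0.05). By the same test 12.3% of all genes were called under LPS/IFN-γ, 24.8% under PolyI:C and 11.8% under CpG. Genotype and number series cannot be told apart in these values, and the baseline of replicates 4 to 6 changed many of them. Each value below is the log2 response in cells labelled CB2-/- minus that in wild type.

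For LPS/IFN-γ these were, among the enzymes of sterol synthesis, Hmgcs1 (1.31), Acat2 (2.23), Mvd (2.21), Idi1 (2.25), Fdps (1.40), Sqle (2.08), Lss (1.73), Cyp51 (2.20) and Msmo1 (1.52), and further Sc5d (1.72) and Dhcr7 (2.12). There were also of the SREBP control genes Srebf2 (0.86) and Insig1 (2.32) and of the transport and storage genes Stard4 (2.83) and Npc2 (-0.53). Among efflux and oxysterol genes the differences under LPS/IFN-γ were those of Abcg1 (-1.27), Mylip (0.67) and Ch25h (-4.91).

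For PolyI:C these were, among the enzymes of sterol synthesis, Hmgcs1 (0.75), Pmvk (1.35), Mvd (2.18), Idi1 (2.22), Fdps (1.67), Fdft1 (2.03), Sqle (3.65), Lss (2.33) and Cyp51 (2.17), and further Tm7sf2 (2.49), Msmo1 (2.19), Nsdhl (1.02), Hsd17b7 (2.33), Sc5d (1.65) and Dhcr7 (2.25). There were also of the SREBP control genes Srebf2 (0.97) and Insig1 (2.16) and of the transport and storage genes Stard4 (3.03), Npc1 (0.91) and Npc2 (-0.61). Among efflux and oxysterol genes the differences under PolyI:C were those of Nr1h3 (-2.25), Abca1 (0.70), Mylip (0.46) and Ch25h (-6.90). Of fatty acid synthesis there were Scd2 (3.39) and Fasn (2.36).

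For CpG these were, among the enzymes of sterol synthesis, Hmgcs1 (0.90), Mvd (2.01), Cyp51 (1.48), Tm7sf2 (2.58) and Sc5d (1.20). There were also of the SREBP control genes Insig1 (1.56) and of the transport and storage genes Npc1 (0.43), Npc2 (0.91) and Soat1 (0.85). Among efflux and oxysterol genes the differences under CpG were those of Nr1h2 (0.55), Abca1 (0.93), Abcg1 (1.01), Mylip (1.49) and Ch25h (-4.25).

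In the 6 unstimulated wild-type libraries, the only group large enough to be looked at for single libraries far from the rest, 3 of the 37 genes had such a library: Scap at 840.25 in replicate 5, Insig2 at 349.12 in replicate 2 and Npc2 at 8108.1 in replicate 4. By chance about 1 in 20 groups would hold such a library. The group holds libraries of 2 number series, so the spread within it is not that of 1 series.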

How the results depend on the processing

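The 396 results were recomputed with a pseudocount of 5 or 0.5, without the filter, with quantile scaling, library weights or only the compared libraries, and with single libraries left out. Leaving out the series term was tried for wild-type responses, genotype differences and the unstimulated genotypes. The batch-corrected values were used for all comparisons but that of the unstimulated wild-type sets. In both settings the 6 unstimulated wild-type libraries formed 1 group. The tally holds only values called in the reported fit, in the alternative or in both. Of 4086 such values from these settings 3395 kept direction and side of the threshold, 438 lost the call, 240 gained one and 13 turned. Of 163 such values against replicates 4 to 6, the baseline chosen after seeing the data, 71 kept both, 45 lost the call, 12 gained one and 35 turned. Of 251 counts 210 stayed within 1.5 times of the reported one. The cause of the changes was not tested. No count test was run, because only 45.9 to 67.7% of low values were whole multiples of 1 step within 0.01, so reads were not recovered. No paired analysis was possible because the labels carry no replicate numbers, and those used here only follow the order of the samples. Genes with low values carry the most counting error, and its part in single values was not tested. Scd1 was at 0 in wild-type CpG replicate 1 (about 4.76 M reads) and at 46.6 in replicate 2 (about 2.50 M). Quantile scaling moved the median of all genes by -0.11 (LPS/IFN-γ), 0.14 (CpG), -0.12 (genotype difference under CpG), -0.28 (LPS/IFN-γ against CpG) and -0.15 (PolyI:C against CpG).

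The following counts of called genes, of 37, moved by more than 1.5 times. Shares of all genes called were not computed for these settings. In wild type with the other baseline LPS/IFN-γ gave 18. With it the genotype difference gave 6 under LPS/IFN-γ and 14 under PolyI:C. Without the series term CpG in wild type gave 14, the genotype differences 5, 13 and 8 in the order LPS/IFN-γ, PolyI:C and CpG, and the unstimulated genotypes 11. With library weights CpG in cells labelled CB2-/- gave 11 and the unstimulated genotypes 12. With these weights LPS/IFN-γ against PolyI:C gave 9 in wild type and 8 in cells labelled CB2-/-, where LPS/IFN-γ against CpG gave 12 and PolyI:C against CpG 9. With only the compared libraries CpG in cells labelled CB2-/- gave 10, the unstimulated genotypes 3, the unstimulated wild-type sets 15, and both comparisons with CpG in cells labelled CB2-/- 9. Quantile scaling gave 2 for LPS/IFN-γ against PolyI:C in wild type. For PolyI:C in cells labelled CB2-/- 5 were called without the filter and 5 with batch-corrected values, and these values gave 21 for the unstimulated genotypes.

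With 1 library left out, counts ranged from 1 to 12 for the unstimulated genotypes, with 3 and 1 without replicate 1 or 2 labelled CB2-/- and 12, 2 and 3 without wild-type replicate 4, 5 or 6. The range was 1 to 4 for PolyI:C in cells labelled CB2-/-, where leaving out any of the 6 libraries moved the count. Among these cells it was 2 to 5 for PolyI:C against CpG, 3 to 5 for LPS/IFN-γ against CpG (3 without CpG replicate 2) and 2 to 4 for LPS/IFN-γ against PolyI:C (2 without LPS/IFN-γ replicate 2). PolyI:C against CpG gave 2 without CpG replicate 2 or 3 and 3 without PolyI:C replicate 1 or 3. In wild type LPS/IFN-γ against PolyI:C ranged from 2 to 5, with 2 when LPS/IFN-γ replicate 2 was left out. Ranges of other counts stayed within 1.5 times of the reported one.

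Single log2 values that turned, among those called in the reported fit or in the alternative, were as follows. Changes of sign without a call in either are not listed. With quantile scaling they came to Npc2 -0.076 and Soat1 -0.070 for LPS/IFN-γ in wild type, Npc2 -0.13 for LPS/IFN-γ in cells labelled CB2-/-, Npc2 0.15 for the genotype difference under PolyI:C, Abca1 -0.15 for PolyI:C against CpG in wild type. With batch-corrected values they came to Ebp -0.37 for CpG in wild type, Msmo1 -0.57, Abca1 0.088, Mylip 0.24 and Scd2 1.28 for the unstimulated genotypes, Scd2 -0.81 for LPS/IFN-γ against CpG in wild type. Without the series term they came to Abcg1 -0.61 for PolyI:C in wild type, Sqle 0.051 for CpG in wild type. Against replicates 4 to 6 they came to Mvd 0.24, Msmo1 0.040, Insig1 0.057, Soat1 -0.27 and Abcg1 -0.98 for LPS/IFN-γ in wild type, Hmgcs1 0.055, Soat1 -0.43 and Abcg1 -1.86 for PolyI:C in wild type. The same baseline gave Hmgcs1 0.22, Idi1 0.79, Fdps 0.93, Fdft1 0.26, Sqle 0.91, Lss 0.78, Cyp51 0.79, Msmo1 0.64, Nsdhl 0.67, Srebf2 0.65 and Insig1 0.15 for CpG in wild type. It also gave Fdps -0.50, Lss -0.072, Cyp51 -0.13, Msmo1 -0.24, Srebf2 -0.079 and Abcg1 1.23 for the genotype difference under LPS/IFN-γ, Hmgcs1 -0.37, Fdps -0.23, Cyp51 -0.16 and Abcg1 2.04 for the genotype difference under PolyI:C, and Hmgcs1 -0.23, Fdps -1.44, Sqle -1.59, Cyp51 -0.85, Msmo1 -1.19 and Insig1 -0.064 for the genotype difference under CpG.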
